A study of Drosophila melanogaster with 32 samples.

Results

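The 8 genes described here encode enzymes of glycolysis in Drosophila melanogaster: Pgi, Pfk, Tpi, Gapdh1, Gapdh2, Pgk, Eno and PyK. They were chosen by name, and all 8 were found among the 17684 genes that the annotation places on chromosome arms. Every peak overlapping the annotated span of such a gene, widened by 1000 bp on each side, was taken from 24 ChIP-seq peak lists. Glycolysis splits glucose into pyruvate in the cytosol and yields ATP and NADH, and its enzymes are made in nearly every cell. M1BP (Motif 1 binding protein) is a zinc-finger protein of promoters that carry the Motif 1 element, a class typical of broadly expressed genes. CP190, Su(Hw) and Mod(mdg4) are chromatin insulator proteins: Su(Hw) contacts DNA through zinc fingers, whereas CP190 and Mod(mdg4) are largely brought to chromatin by partner proteins and have BTB domains.

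Kc167 is a cell line derived from Drosophila embryos and labelled female. Cells with M1BP knockdown had received 20 µg of double-stranded RNA against M1BP and were kept for 5 days, and their reference was a first set of mock-treated cells. In both of these, M1BP, CP190, Su(Hw) and Mod(mdg4) were precipitated. Cells with CP190 knockdown had received 12 µg of double-stranded RNA against Cp190 and were kept for the same time, and their reference was a second set of mock-treated cells, with M1BP and CP190 precipitated. The double-stranded RNA lowers the targeted transcript in a whole culture, and the protein that remained was not measured in the files used here. There were 2 libraries for each of 12 pairs of antibody and treatment, and the labels do not say whether these were separate cultures. The lists held 1699 to 8443 peaks each, their read depth is unknown, and 8 input libraries were not analysed here.

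Fold values below are the fold enrichment of ChIP over control that the authors' peak caller gave for a peak, in replicate 1 and then replicate 2. No scaling between libraries is stated for them, so a lower fold in a shorter list is a description of that list. With 2 libraries against 2 an exact permutation test cannot go below p = 0.333, so no difference between treatments was tested at a single site. A site is a set of overlapping peaks and is numbered along the chromosome within its gene. It is lost when both mock lists had a peak and neither knockdown list had one, retained when all 4 had a peak, and gained when both knockdown lists and neither mock list had one. Other sites are left unclassed. A lost site is one without a peak past the authors' threshold, which does not show that no protein was there.

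The 8 genes held 149 peaks at 19 sites, of which 86 were CP190 peaks, 58 M1BP peaks and 5 Mod(mdg4) peaks. Su(Hw) had no peak at any of the 8 genes in any of its 4 lists. Of all annotated genes, 16.9% had a Su(Hw) site in both mock lists, and 8 genes are too few to set that absence apart from this share. CP190 had a peak at all 8 genes in each of the 6 lists from cells without CP190 knockdown. In those cells CP190 lay within 1 kb of 58.4 to 61.5% of all protein-coding genes, depending on the list. M1BP had peaks at 3 of the 8 genes in each M1BP knockdown list, at 5 in each list of the first mock set, at 7 and 8 after CP190 knockdown, and at 7 and 6 in the second mock set. Of all protein-coding genes, M1BP had a peak at 21.7 and 21.2% in the M1BP knockdown lists, against 33.3 and 32.6% in the first mock set. In the CP190 knockdown lists it had one at 42.3 and 41.4%, against 42.5 and 39.8% in the second mock set. The M1BP lists held 1776 and 1699 peaks after M1BP knockdown, against 2980 and 2781 in mock cells, and the CP190 lists 2031 and 2150 after CP190 knockdown, against 8443 and 8197 in mock cells. The lists of the first and the second mock set also differ in length for M1BP, and each knockdown is therefore set beside its own mock set.

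**Figure D1:**
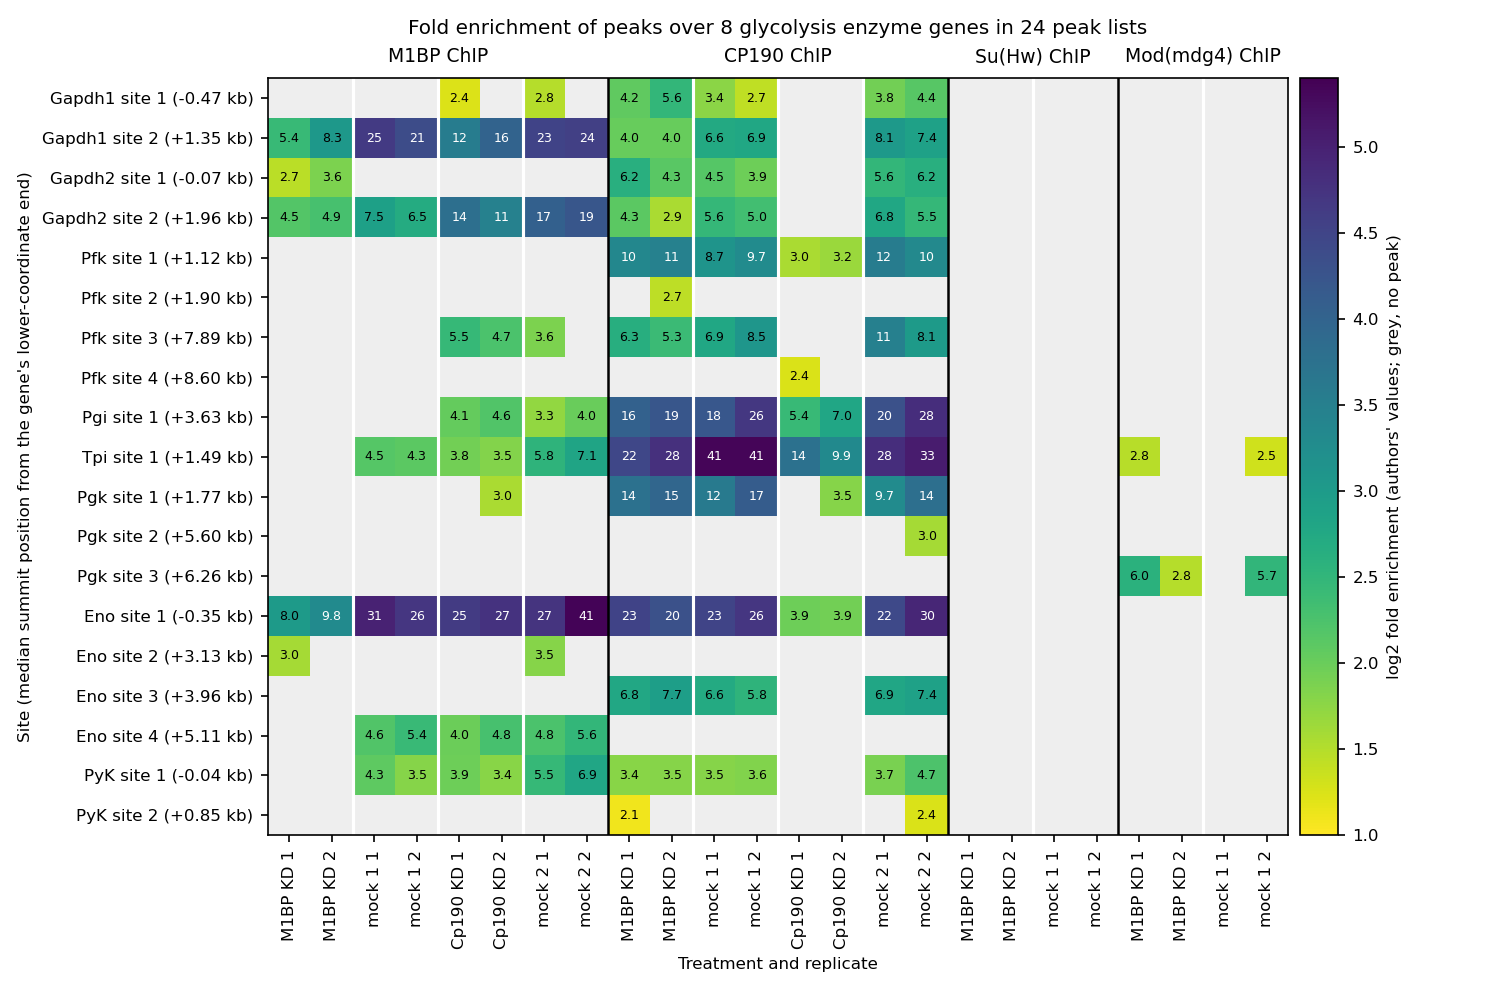
Fold enrichment of each peak over the 8 genes. Rows are the 19 sites with the median summit position in kb from the lower-coordinate end of the gene, columns are the 24 lists by antibody, treatment and replicate, colour is log2 fold and grey means no peak. CP190 peaks recur in all 4 libraries of M1BP knockdown and its mock set in 12 of the 19 rows, M1BP is strongest at Eno site 1 and Gapdh1 site 2, and the Su(Hw) columns are empty.

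Where these proteins sat in mock cells is taken first, gene by gene in the order of the pathway. Pgi, glucose-6-phosphate isomerase, had 1 site, on 2R from 8913519 to 8915009, just beyond its upper end. CP190 was strong there, with folds of 18.4 and 25.9 in the first and 19.8 and 28.2 in the second mock set. M1BP was weak, at 3.27 and 4.03 in the second mock set, and had no peak in the first. The CP190 summit of the first mock set lay 19.0 bp from an end of lin, a developmental regulator gene, and 474.0 bp from the end of Pgi.

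Pfk, phosphofructokinase, the committed step of the pathway, had 2 recurrent CP190 sites. Pfk site 1 lay inside the gene, 1117.0 bp from its lower end by the median summit, with CP190 folds of 8.70 and 9.74 in the first and 11.7 and 10.1 in the second mock set. Pfk site 3 lay between Pfk and dmpd, an F-box protein gene, with CP190 folds of 6.88 and 8.47 in the first and 11.2 and 8.05 in the second mock set. M1BP had a peak there in 1 of the 4 mock lists, replicate 1 of the second set, with a fold of 3.65. Pfk sites 2 and 4 rested on a single CP190 peak each.

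Tpi, triosephosphate isomerase, carried the strongest CP190 site of the 8 genes, on 3R from 30133889 to 30135323. The CP190 folds were 40.7 and 40.6 in the first mock set, at percentiles of 98.1 and 98.6 of those lists, and 28.3 and 33.3 in the second. The M1BP folds at the same place were 4.46 and 4.33 in the first and 5.78 and 7.13 in the second mock set, which put M1BP at percentiles of 23.4 and 22.6 of its first-set lists. In the first mock set Tpi thus stood near the top of the CP190 lists and in the lower part of the M1BP lists. In the second mock set its percentiles were 93.4 and 97.6 for CP190, and 42.7 and 40.7 for M1BP. Its summits lay inside the annotated gene, with M1BP 167.0 bp from the end in the first mock set and the end of AdoR, the adenosine receptor gene, 424.0 bp away.

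Gapdh1 and Gapdh2 encode glyceraldehyde-3-phosphate dehydrogenase, and each had a site near either end. The 2 genes are paralogs with similar coding sequence, and how reads that match both were treated is unknown, so peaks inside either span are uncertain to that extent. Gapdh1 site 2, on 2R from 7792819 to 7794030, was a strong M1BP site, with folds of 25.1 and 20.7 in the first and 22.8 and 23.7 in the second mock set. CP190 folds there were 6.61 and 6.89 in the first and 8.14 and 7.38 in the second mock set. The M1BP summit of the first mock set lay 119.5 bp inside the end of Gapdh1, and the nearest end of another gene, PolZ1 of DNA polymerase zeta, was 364.5 bp away. Gapdh1 site 1, between CG12824 and Gapdh1, had weak CP190 peaks of 3.41 and 2.68 in the first and 3.82 and 4.41 in the second mock set. M1BP had a weak peak there in replicate 1 of the second mock set, with a fold of 2.80.

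Gapdh2 lay on the X, and its site 2, from 15869657 to 15870620, held M1BP with folds of 7.5 and 6.45 in the first and 16.6 and 18.6 in the second mock set. CP190 folds there were 5.57 and 5.03 in the first and 6.83 and 5.54 in the second mock set. The M1BP summit of the first mock set was 72.5 bp from an end of CG16952 and 449.5 bp from the end of Gapdh2. Gapdh2 site 1, at the other end of the gene, held CP190 with folds of 4.47 and 3.90 in the first and 5.62 and 6.16 in the second mock set. Its CP190 summit in the first mock set was 3.5 bp from the end of Gapdh2, and M1BP had no peak there in any mock list.

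Pgk, phosphoglycerate kinase, differed from the other 7 genes in having no M1BP peak in any mock list. Its main site, Pgk site 1, lay 1773.0 bp inside the lower end, with CP190 folds of 12.0 and 17.3 in the first and 9.70 and 13.8 in the second mock set. At the upper end, Pgk site 3 was a site of Mod(mdg4) alone, with a fold of 5.66 in replicate 2 of the mock lists and no peak in replicate 1. That position is also inside Bacc, whose span overlaps that of Pgk.

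Eno, enolase, had the strongest M1BP site of the 8 genes, on 2L from 1724065 to 1725064. The M1BP folds at Eno site 1 were 31.4 and 26.0 in the first and 26.8 and 41.2 in the second mock set, where they reached percentiles of 94.3 and 99.7. CP190 was strong at the same site, at 22.7 and 26.0 in the first and 21.6 and 30.5 in the second mock set. The M1BP summit of the first mock set lay 7.0 bp from an end of Rim2, a mitochondrial nucleotide carrier gene, and 373.0 bp from the end of Eno. Eno site 4, beyond the other end, was a weak M1BP site without CP190, at 4.60 and 5.36 in the first and 4.75 and 5.59 in the second mock set, and its summit was 6.5 bp from an end of CG31937. Eno site 3 held CP190 alone, at 6.57 and 5.84 in the first and 6.94 and 7.40 in the second mock set, 36.5 bp from an end of Rrp40, an RNA exosome gene whose span overlaps that of Eno.

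PyK, pyruvate kinase, the last step, had a weak site that both proteins shared, on 3R from 22367000 to 22367967 between PyK and Polr3F, a subunit gene of RNA polymerase III. M1BP folds were 4.28 and 3.47 in the first and 5.49 and 6.91 in the second mock set. CP190 folds were 3.46 and 3.57 in the first and 3.68 and 4.67 in the second mock set. PyK was the gene with the lowest CP190 folds when each gene is taken by its strongest site. By the mean CP190 fold of the first mock set, Tpi stood first, followed by Eno, Pgi, Pgk, Pfk, Gapdh1, Gapdh2 and PyK. The replicate values of Eno, 22.7 and 26.0, and of Pgi, 18.4 and 25.9, overlapped, so these neighbours in the order do not differ beyond their spread. In the second mock set the means had the same order, and 3 neighbouring pairs overlapped: Tpi and Eno, Eno and Pgi, and Pgk and Pfk.

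**Figure D2:**
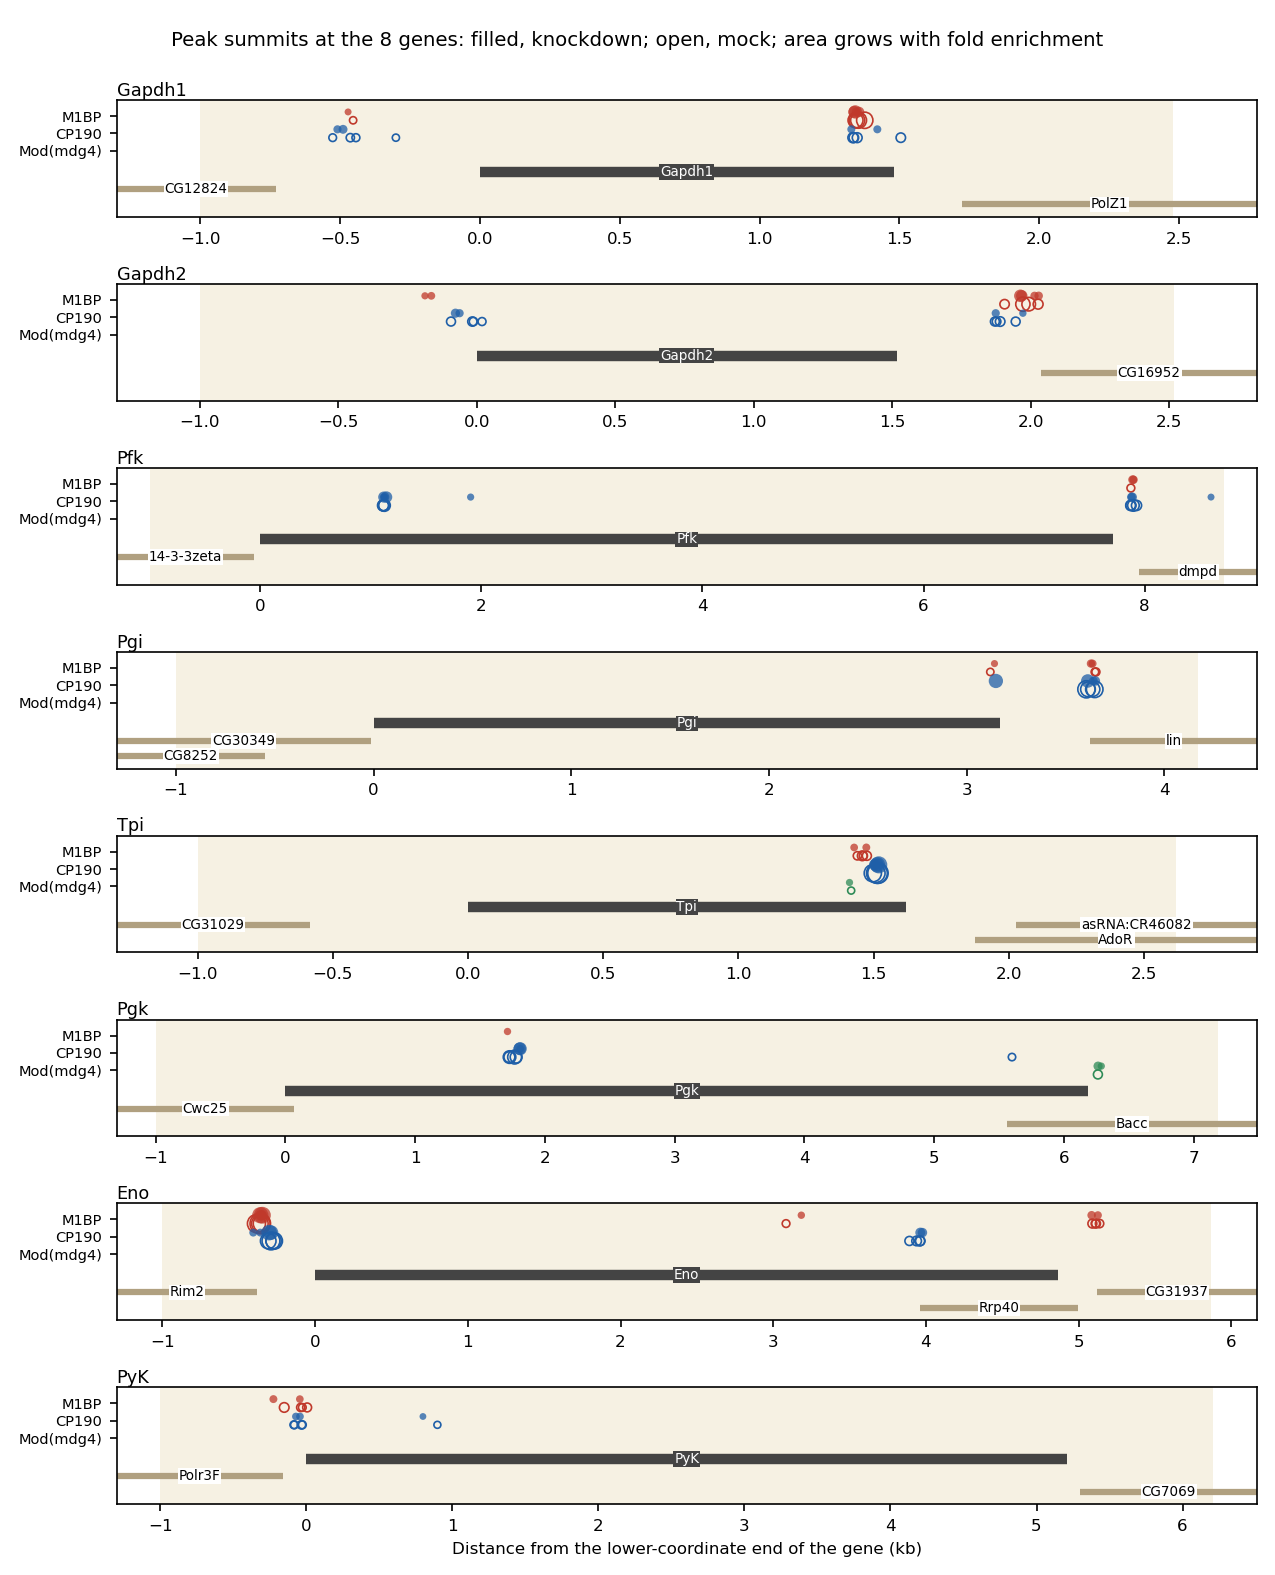
Summits of all peaks at the 8 genes against distance in kb from the lower-coordinate end of the gene. Rows within a panel are M1BP in red, CP190 in blue and Mod(mdg4) in green, with filled circles for knockdown and open circles for mock libraries, circle area growing with fold, the dark bar the gene, light bars its neighbours and shading the widened span. M1BP circles of Eno sites 1 and 4 and Gapdh2 site 2 lie near ends of Rim2, CG31937 and CG16952, and the larger ones of Pgi near lin. Gapdh2 site 1, Eno site 2 and 2 smaller peaks at Pgi, with folds of 2.82 and 2.60, lie elsewhere.

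M1BP sites in both first mock lists lay at 5 of the 8 genes, against 26.7% of all annotated genes and 31.1% of protein-coding genes, and they numbered 6, since Eno had 2. In the second mock set M1BP was in both lists at 6 of the 8 genes, with Pgi as the additional one. The shares there were 33.2% of all genes and 38.7% of protein-coding genes. CP190 was in both lists at 8 of 8 genes in either mock set. Its shares were 50.7% of all genes in the first and 53.5% in the second, and 57.3% and 60.3% of protein-coding genes. Mod(mdg4) was in both mock lists at none of the 8, against 12.4% of all genes and 13.7% of protein-coding genes. That absence is too little to set apart from those shares. A long gene has more room for a peak, so these shares also carry the lengths of the genes.

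CP190 overlapped 5 of the 6 M1BP sites in the first mock set and 6 of the 7 in the second, and Eno site 4 was the exception in both. Over all genes the share of M1BP sites that CP190 overlapped was 79.4% of 2443 in the first and 87.9% of 3114 in the second mock set, with sites merged from the 2 mock lists alone. The M1BP and CP190 summits at the shared sites lay 50.5 to 92.5 bp apart in the first mock set, against a median of 49.0 bp over all shared sites. In the second mock set they lay 9.5 to 74.0 bp apart, against a median of 31.0 bp. Of the 6 M1BP sites in the first mock set, 3 had their summit nearer to an end of another gene than to an end of the glycolysis gene, namely both Eno sites and Gapdh2 site 2. The sites at Gapdh1, Tpi and PyK were nearer to the glycolysis gene itself. The annotation used gives no strand, so whether such an end is a promoter was not tested.

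**Figure D3:**
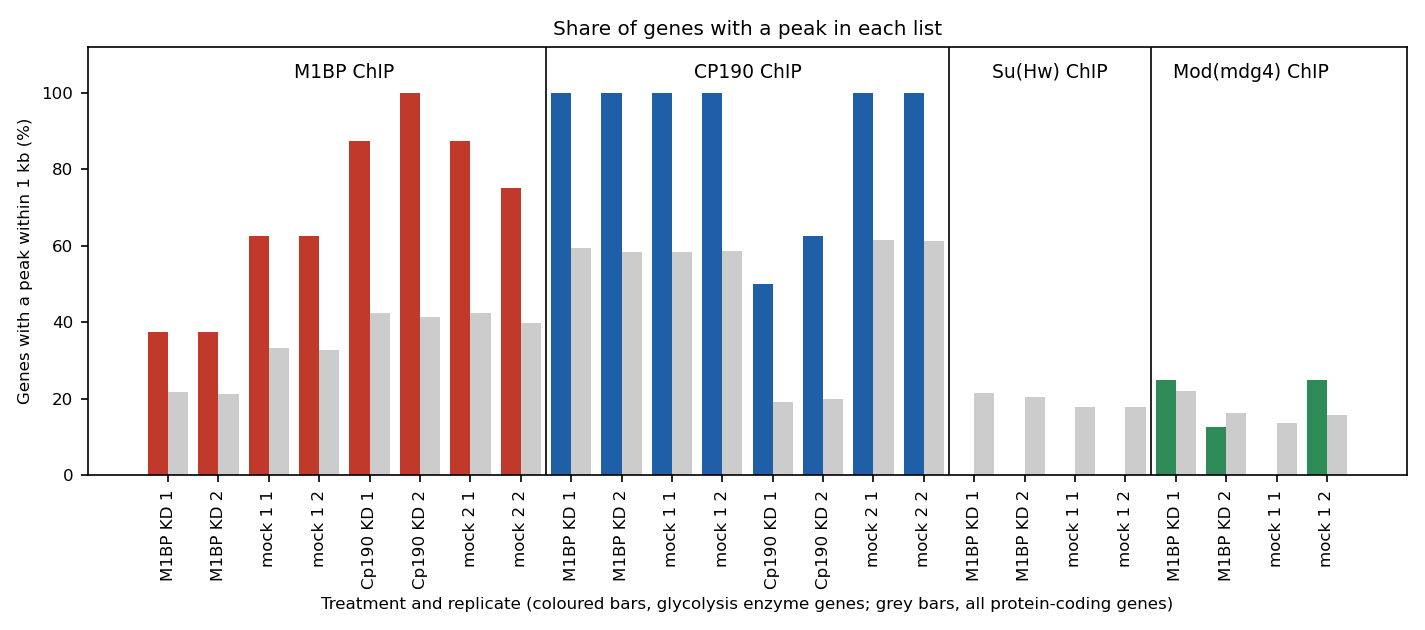
Share of genes with a peak within 1 kb, in percent, for the 8 glycolysis enzyme genes (coloured bars) and for all protein-coding genes (grey bars) in each of the 24 lists by antibody, treatment and replicate. The glycolysis genes stand at 100% in the 6 CP190 lists without CP190 knockdown and at 0 in the 4 Su(Hw) lists.

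After M1BP knockdown, M1BP was lost at 3 of the 6 sites and retained at the other 3. The lost sites were the weak ones at Tpi, PyK and Eno site 4. Over all genes 34.1% of 2443 sites were lost, so 3 of 6 is read against that share, and a count of 6 is too small to set apart from it. In the mock lists the lost sites had folds of 4.46 and 4.33 at Tpi, 4.28 and 3.47 at PyK, and 4.60 and 5.36 at Eno site 4, within percentiles of 11.8 to 28.0. The retained sites lay between percentiles of 32.1 and 94.8, so the groups of lost and retained sites did not overlap in mock strength. With the 4 lists trimmed to equal length, 0 sites were lost, since only 2, Eno site 1 and Gapdh1 site 2, then had a peak in both mock lists.

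M1BP at Eno site 1 had folds of 8.03 and 9.77 in M1BP knockdown libraries, against 31.4 and 26.0 in mock libraries. At Gapdh1 site 2 the folds were 5.38 and 8.35 in M1BP knockdown libraries, against 25.1 and 20.7 in mock libraries. At Gapdh2 site 2 they were 4.51 and 4.87 in M1BP knockdown libraries, against 7.5 and 6.45 in mock libraries. At all 3 sites both knockdown folds lay below both mock folds, as at 88.3% of the 1451 retained sites over all genes. The ratio of the mean knockdown fold to the mean mock fold was 0.310 at Eno, 0.300 at Gapdh1 and 0.672 at Gapdh2. The median over all retained sites was 0.437. Gapdh2 site 2 had M1BP folds of 16.6 and 18.6 in the second mock set, so its ratio rests on the lower mock set.

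Gapdh2 also had the single gained M1BP site, at its other end. M1BP folds at Gapdh2 site 1, on the X from 15867772 to 15868174, were 2.73 and 3.65 in M1BP knockdown libraries, and neither mock library had a peak. Over all genes 0.825% of 3153 sites were gained. Neither knockdown peak reached a -log10 q of 10, with values of 8.75 and 9.83, and no M1BP peak was there in CP190 knockdown cells or in the second mock set. The CP190 peaks at this end were present in all 4 lists, with folds of 6.16 and 4.35 in M1BP knockdown libraries, against 4.47 and 3.90 in mock libraries, and these overlapped. Without knockdown replicate 2 there were 2 gained sites, Eno site 2 being the other, and with lists of equal length the 2 were both sites of Gapdh2.

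**Figure D4:**
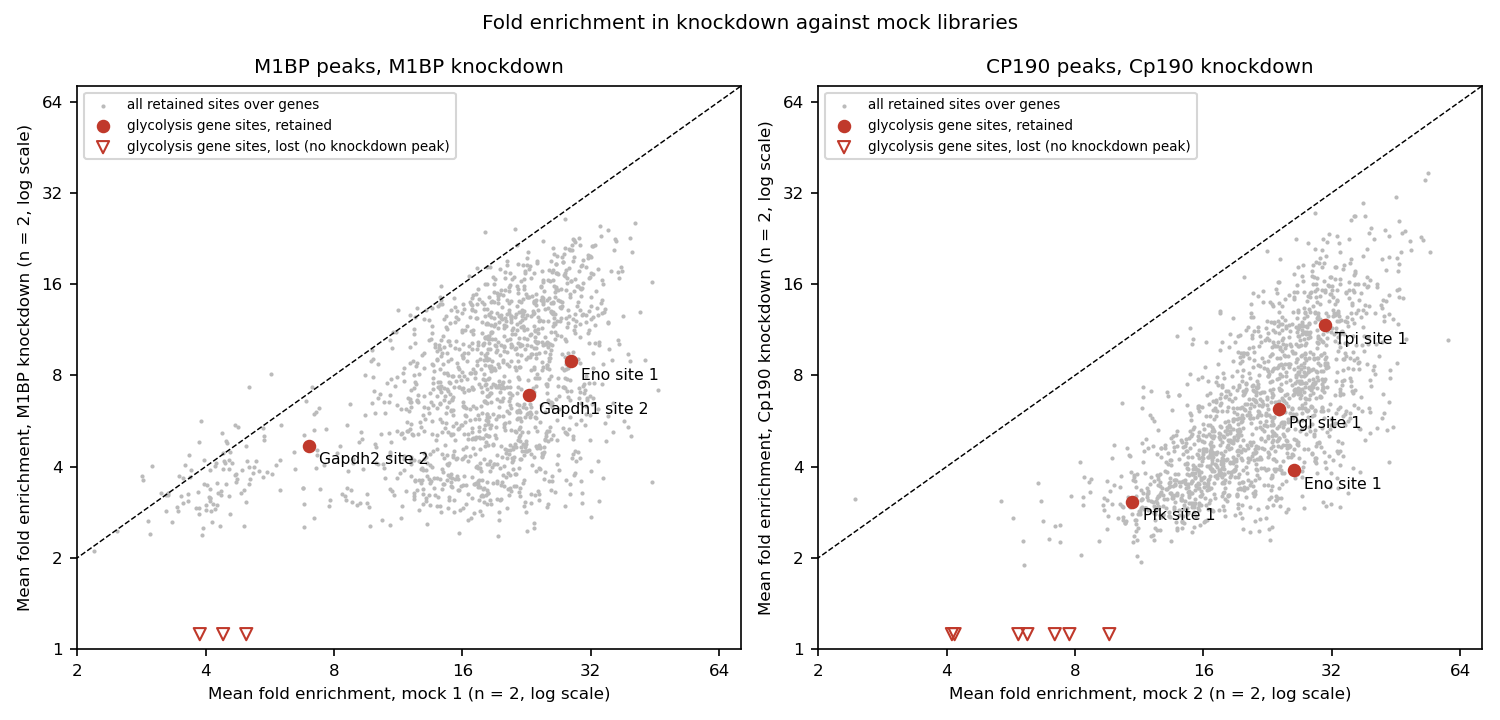
Mean fold enrichment over 2 libraries in knockdown cells (vertical axis) against mock cells (horizontal axis), both on log scales, for M1BP peaks with M1BP knockdown (left) and CP190 peaks with Cp190 knockdown (right). Grey points are all retained sites over genes, red points the retained and open triangles at the bottom the lost sites of the glycolysis genes, and the dashed line marks equal folds. On the left the lost glycolysis gene sites lie below the retained glycolysis gene sites in mock fold, with at most 5.36 in a single library. Some grey points of retained sites lie lower still in mock fold. On the right the single-library mock folds of lost sites reach 11.2 at Pfk site 3, above the 10.1 of the retained Pfk site 1.

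CP190 kept all of its sites at these genes after M1BP knockdown. All 12 sites in both mock lists were retained, none was lost and none was gained. Over all genes 4.32% of 6501 sites were lost and 3.60% of 7971 sites gained. A count of 12 is too small to set apart from those shares. Both knockdown folds lay below both mock folds at 4 of the 12 sites, against 40.7% of retained sites over all genes, and above both at 3, against 15.3%. At Tpi the CP190 folds were 22.0 and 27.8 in M1BP knockdown libraries, against 40.7 and 40.6 in mock libraries. At Gapdh1 site 2 they were 4.05 and 4.04 in M1BP knockdown libraries, against 6.61 and 6.89 in mock libraries. Neither pair overlapped, and both genes had M1BP at that site in mock cells. The knockdown-to-mock ratio of CP190 folds was 0.612 at Tpi and 0.599 at Gapdh1 site 2, at percentiles of 6.88 and 6.17 among all retained sites, where the median ratio was 0.901. A site was gained without knockdown replicate 1, at Pfk site 2, or without knockdown replicate 2, at PyK site 2, 1 in each case. With peaks of a -log10 q of at least 10 there were 2, at Gapdh1 site 1 and PyK site 1, whose mock peaks were under that limit.

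The other 2 sites with lower folds were Gapdh2 site 2, with 4.31 and 2.94 in M1BP knockdown libraries against 5.57 and 5.03 in mock libraries, and Pfk site 3, with 6.26 and 5.31 against 6.88 and 8.47. M1BP shared Gapdh2 site 2 in mock cells, but had no peak at Pfk site 3 in the first mock set. At Eno site 1, where M1BP was strongest, the CP190 folds were 22.9 and 19.8 in M1BP knockdown libraries, against 22.7 and 26.0 in mock libraries, and overlapped. At PyK, where M1BP was lost, CP190 had 3.43 and 3.47 in M1BP knockdown libraries, against 3.46 and 3.57 in mock libraries, which overlapped too.

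The 3 sites with CP190 folds above both mock values were Gapdh1 site 1, Pfk site 1 and Eno site 3. M1BP held none of these in the first mock set. At Gapdh1 site 1 M1BP had a peak of 2.80 in replicate 1 of the second mock set and of 2.36 in CP190 knockdown replicate 1. Whether the direction of the CP190 folds went with M1BP at a site was not tested. At Gapdh1 site 1 the folds were 4.22 and 5.61 in M1BP knockdown libraries, against 3.41 and 2.68 in mock libraries, and its ratio of 1.61 was at percentile 98.4 of all retained sites. At Pfk site 1 they were 10.3 and 11.1 in M1BP knockdown libraries, against 8.70 and 9.74 in mock libraries. At Eno site 3 they were 6.75 and 7.66 in M1BP knockdown libraries, against 6.57 and 5.84 in mock libraries. CP190 at Pgk overlapped between treatments, with 13.5 and 15.4 in M1BP knockdown libraries, against 12.0 and 17.3 in mock libraries. So did CP190 at Pgi, with 16.4 and 18.7 in M1BP knockdown libraries, against 18.4 and 25.9 in mock libraries.

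Neither Su(Hw) nor Mod(mdg4) had a site in both mock lists at the 8 genes, so no loss could be counted after M1BP knockdown. Su(Hw) had no site there in any list, and neither of the 2 Mod(mdg4) sites was gained. Over all genes 9.96% of Su(Hw) sites and 7.07% of Mod(mdg4) sites were gained, shares that cannot be read against so few. At the Pgk end Mod(mdg4) had folds of 6.0 and 2.80 in M1BP knockdown libraries, against 5.66 in mock replicate 2 and no peak in mock replicate 1. At Tpi it had 2.79 in knockdown replicate 1, against 2.50 in mock replicate 2, with no peak in the other library of either treatment. Both sites were therefore unclassed. Without mock replicate 1 both counted as present in mock cells, and without mock replicate 2 the Pgk site counted as gained.

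After CP190 knockdown, CP190 peaks remained mainly at the stronger CP190 sites of these genes. The knockdown lists held 2031 and 2150 peaks, against 8443 and 8197 in mock cells. Loss of weaker sites therefore cannot be told apart from list length. Of the 12 sites in both second mock lists, 7 were lost and 4 retained, and Pgk site 1 was left unclassed because a peak of fold 3.5 remained in knockdown replicate 2 alone. Over all genes 70.3% of 7076 sites were lost, and gained sites made up 0% of 7928. A count of 12 is too small to set apart from those shares. The lost sites were both sites of Gapdh1, both of Gapdh2, PyK site 1, Pfk site 3 and Eno site 3, so neither Gapdh gene nor PyK kept a CP190 peak. Mock folds ran from 3.68 to 11.2 at the lost sites and from 10.1 to 33.3 at the retained ones, so the ranges overlapped at Pfk, whose site 3 was lost and site 1 retained. Without knockdown replicate 2, the peak at Pfk site 4 counted as 1 gained site. With lists of equal length none was lost, since only Tpi, Pgi and Eno site 1 then had a peak in both mock lists.

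CP190 was retained at Tpi, with 13.5 and 9.93 in CP190 knockdown libraries against 28.3 and 33.3 in mock libraries, and at Pgi, with 5.44 and 6.96 against 19.8 and 28.2. At Pfk site 1 the folds were 2.95 and 3.18 in CP190 knockdown libraries, against 11.7 and 10.1 in mock libraries. At Eno site 1 they were 3.92 and 3.85 in CP190 knockdown libraries, against 21.6 and 30.5 in mock libraries. At all 4 sites both knockdown folds lay below both mock folds, as at 99.4% of retained sites over all genes. Eno site 1 had a ratio of 0.149, at percentile 4.94 of all retained sites, and Tpi one of 0.381, at percentile 76.9, where the median ratio was 0.276. Pgi had a ratio of 0.258, at percentile 42.8, and Pfk site 1 one of 0.281, at percentile 52.0. Differences in ratio between these sites were not tested.

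M1BP stayed at all of its sites after CP190 knockdown. The 7 sites in both second mock lists were all retained, against 5.19% lost of 3085 sites over all genes. None was gained, against 2.90% of 4237 sites. A count of 7 is too small to set apart from these shares. Both knockdown folds lay below both mock folds at 4 of the 7, against 61.1% of retained sites over all genes, and above both at 1, against 6.24%. Eno site 1, which kept only a weak CP190 peak, had M1BP folds of 24.9 and 26.9 in CP190 knockdown libraries, against 26.8 and 41.2 in mock libraries, which overlapped. Eno site 4, which had no CP190 peak in any list, had 3.99 and 4.83 in CP190 knockdown libraries, against 4.75 and 5.59 in mock libraries, which overlapped as well.

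M1BP was in both second mock lists at 3 of the 7 sites where CP190 was lost, and had lower folds there. Gapdh1 site 2 had 11.8 and 16.0 in CP190 knockdown libraries, against 22.8 and 23.7 in mock libraries. Gapdh2 site 2 had 13.9 and 11.0 in CP190 knockdown libraries, against 16.6 and 18.6 in mock libraries. PyK had 3.90 and 3.43 in CP190 knockdown libraries, against 5.49 and 6.91 in mock libraries. Tpi, where CP190 was retained, had 3.83 and 3.54 in CP190 knockdown libraries, against 5.78 and 7.13 in mock libraries. These 4 pairs did not overlap, and their ratios of 0.571 to 0.706 lay below the median of 0.777 over all retained sites. Both knockdown folds likewise lay below both mock folds at 61.1% of retained sites over all genes. Whether lower M1BP folds went with the loss of CP190 was not tested.

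Pgi was the single site with M1BP folds above both mock values, at 4.11 and 4.59 in CP190 knockdown libraries, against 3.27 and 4.03 in mock libraries. M1BP at Pfk site 3, where CP190 was lost as well, had 5.48 and 4.72 in CP190 knockdown libraries, against 3.65 in mock replicate 1 and no peak in mock replicate 2, and was unclassed. Pgk had its sole M1BP peak of all 8 M1BP lists in CP190 knockdown replicate 2, with a fold of 2.95. Without mock replicate 2, sites in mock cells numbered 11 and 1 of them, Eno site 2, was lost. The sites at Pfk and Pgk counted as gained without mock replicate 1 and without knockdown replicate 1, 1 in each case.

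A list of 22 other genes of glycolysis and linked steps, hexokinases, aldolases, trehalose and pyruvate enzymes among them, is given for comparison. M1BP was in both first mock lists at 10 of the 22 and in both second mock lists at 11, and CP190 at 16 and 15. The CP190 site of Ldh, counted in the first set alone, reached the widened span of that gene only at its edge. After M1BP knockdown M1BP was lost at 5 of 12 sites and CP190 at 0 of 23, and after CP190 knockdown CP190 was lost at 13 of 22 sites and M1BP at 1 of 13. The background shares given above for each comparison apply to these counts as well. Su(Hw) was in both mock lists at 4 of the 22 genes, Ald1, Pepck2, Treh and Tret1-1, and Mod(mdg4) at the same 4. Of all protein-coding genes, 18.2% had a Su(Hw) site and 13.7% a Mod(mdg4) site in both mock lists. A count of 4 of 22 is too small to set apart from these shares.

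Strong M1BP sites on this list were lost as well. Pglym78, phosphoglycerate mutase, had no M1BP peak in M1BP knockdown libraries, against 16.6 and 15.1 in mock libraries, and Hex-t2, a hexokinase gene, had none against 12.9 and 14.1. Pfrx, which makes the allosteric activator of phosphofructokinase, lost 2 sites, with 10.9 and 8.33 in mock libraries at the stronger. Tps1, trehalose-6-phosphate synthase, lost a site of 6.30 and 7.71 and retained another, with 3.67 and 5.14 in M1BP knockdown libraries against 23.5 and 22.7 in mock libraries. The genes of the pyruvate dehydrogenase E1 subunits retained M1BP, Pdha with 3.28 and 5.49 in M1BP knockdown libraries against 22.8 and 18.4 in mock libraries, and Pdhb with 4.07 and 5.21 against 22.7 and 21.3. Mpc1, the mitochondrial pyruvate carrier gene, had 2.69 in knockdown replicate 1 alone, against 20.9 and 14.8 in mock libraries, and was unclassed.

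Treh (trehalase) retained M1BP, with 2.95 and 2.12 in M1BP knockdown libraries against 8.63 and 4.97 in mock libraries. Hex-C had 2.75 and 3.69 in M1BP knockdown libraries against 3.83 and 2.71 in mock libraries, and Ldh, lactate dehydrogenase, 3.63 and 4.59 against 4.76 and 4.12. Both of these overlapped. After CP190 knockdown Ald1, aldolase, lost a weak M1BP site of 3.84 and 4.13 in mock libraries. M1BP at ERR, a nuclear receptor that drives glycolytic genes in the fly, had 2.92 and 4.03 in CP190 knockdown libraries against 3.19 and 3.64 in mock libraries, and at Pgm1, phosphoglucomutase, 4.52 and 2.95 against 3.31 and 4.03. M1BP sites were gained after CP190 knockdown at Pdhb, with 2.69 and 2.77, and at Pfrx, with 3.19 and 2.59 in knockdown libraries.

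CP190 was lost after CP190 knockdown at ERR, Hex-C, Mpc1, Pdha, Pgm1 and Tret1-1, at 2 sites each of Gpdh1, Pdhb and Tps1, and at 1 of the 3 sites of Pfrx. The highest mock folds among these were 13.3 and 14.6, at Gpdh1, glycerol-3-phosphate dehydrogenase. CP190 was retained at Pglym78, with 9.20 and 11.4 in CP190 knockdown libraries against 15.9 and 22.1 in mock libraries, and at both sites of Ald1, the stronger with 12.8 and 7.57 against 32.8 and 33.5. After M1BP knockdown a Su(Hw) site was gained at Pfrx, with 2.80 and 2.47, and a Mod(mdg4) site at Treh, with 2.89 and 2.17 in knockdown libraries.

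The genes whose peaks were most like those of each glycolysis gene were found by the Euclidean distance of within-list percentiles over the 24 lists. Gapdh1 was closest to CG8004 and RhoGDI, and Gapdh2 to sip3 and Polr2K. Pfk was closest to CG34290 and Uck, Pgi to Non1 and Spt20, Tpi to CG3556 and CG3358, Eno to CCT6 and Mvd, and PyK to ninaG and Sptz. The distances for these 7 genes were 21.4 to 34.5 percentile points over all 24 lists. Pgk had no close match, with Eo and CG9503 nearest at 52.0 points, and no other gene shared its pattern of presence in all 24 lists. That pattern included weak peaks in a single replicate, such as M1BP at 2.95 and CP190 at 3.5 in CP190 knockdown replicate 2. It also included Mod(mdg4) at Pgk site 3, a position that is inside Bacc as well. The Mod(mdg4) percentiles there were 70.7 and 38.5 in the M1BP knockdown lists and 46.0 in mock replicate 2. By contrast 1126 other genes had the same pattern of presence as Gapdh1 and Gapdh2, and 446 that of Eno. Such genes numbered 466 for PyK, 91 for Pgi, 22 for Pfk and 2 for Tpi. Some of the paired names share peaks, since neighbouring genes are counted separately.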

How the data were processed

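ChIP-seq peak lists of 24 libraries were analysed, 2 in each of 12 groups taken from the labels. The submitters' processing notes name MACS2 2.2.5, Picard 2.20.2, Bowtie2 2.3.5 and SAMtools 1.9, with order and options not given in the sources used here. The authors called peaks per library, as the deposited peak names show. The deposited fold enrichment is a ratio of ChIP over control by the authors' peak caller, for which no scaling between libraries is stated. The authors' -log10 p and -log10 q of each peak are as deposited, the smallest -log10 q being 1.30. The deposited score is 10 times -log10 q rounded down (1 of 113005 peaks differed) and was not used. The other deposited column is the summit offset. The build is not given in the labels, and the chromosome names fit dm6, as does the highest position on chrM, 19524.

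Genes came from a RefSeq table of that assembly, which has no strand and no sequence, so the planned promoter motif search was not run. Within a comparison, peaks of its 4 lists that shared 1 bp or more formed a site, using Python 3.11.15, pandas 2.3.3 and NumPy 2.4.6, checked on simulated data. Sites over genes are those with a peak within 1000 bp of any gene on the arms. Figures used Matplotlib 3.10.9. Genes and lists were chosen with earlier results of these data known. Named genes are all members, the listed 22 other genes where M1BP was in both lists of a mock set or a site was lost or gained, and genes with an end within 250 bp of a member summit. CG12824, PolZ1, AdoR and Pepck2 were named after their values were seen. Alternatives were wider or no flanks, a -log10 q of 10 or more, summits inside the span, lists of equal length and each replicate left out. No set test was run. Differences between 2 and 2 libraries may be technical. Read depth is not given, and the number of peaks limits precision.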

Additional observations from a re-analysis of the deposited data

How the results depend on the processing

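The 18 counts were of sites in mock lists, lost and gained at the 8 genes. All kept within 1.5 times of their value with no widening of the gene, with 2 kb on each side and with summits required inside the widened span. With no widening, M1BP sites in both first mock lists still fell from 6 to 4 and lost ones from 3 to 2. Eno site 4 and Gapdh2 site 2 then dropped out. When only peaks at a -log10 q of at least 10 were used, the M1BP site gained after M1BP knockdown was no longer counted (0), and 2 CP190 sites, at Gapdh1 and PyK, counted as gained, because their weak mock peaks fell under that limit. With lists of equal length after M1BP knockdown, 2 M1BP sites remained in both mock lists, 0 were lost and 2 were gained, both at Gapdh2. With lists of equal length after CP190 knockdown, 3 CP190 sites remained in both mock lists and 0 were lost. Trimming removes weak mock peaks, so these losses cannot be told apart from list length.

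Leaving out 1 library at a time gave 1 to 2 gained M1BP sites after M1BP knockdown (2 without knockdown replicate 2, at Eno site 2 and Gapdh2 site 1) and 0 to 1 gained CP190 sites (1 without either knockdown library). Mod(mdg4) then had 0 to 2 sites in mock lists (2 without mock replicate 1) and 0 to 1 gained (1 without mock replicate 2). After CP190 knockdown CP190 had 0 to 1 gained sites (1 without knockdown replicate 2). M1BP had 7 to 11 sites in mock lists, 0 to 1 lost (11 and 1 without mock replicate 2) and 0 to 1 gained (1 without mock replicate 1 or knockdown replicate 1). No paired analysis was possible because the results are counts of sites that come from no test. The planned promoter motif search was not run for want of sequence.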
